A study of Mus musculus with 34 samples.

Results

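Fibroblast growth factor (FGF) signalling was examined at 31 of the 21631 protein-coding genes of the reference gene table: 22 ligand genes, the 4 receptor genes and 5 feedback genes (Spry1, Spry2, Spry3, Spry4 and Dusp6). Each gene was given the open sites that lay inside its interval on the mouse genome or within 50 kb of it. Of the 31 genes, 30 could be placed, against 21523 of all genes. Spry3 was listed at a part of the X chromosome where none of the lists has a site, so its count of 0 says nothing of its accessibility and it enters no count below.

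Open chromatin was mapped by ATAC-seq, a method that uses the Tn5 transposase to tag accessible DNA, in 34 samples that form 17 groups of 2. Etv2, an ETS-family factor of the vessel and blood lineages, was induced with doxycycline in mouse embryonic fibroblasts (MEF, labelled iHA-Etv2) and in embryoid bodies (EB, aggregates of differentiating stem cells). MEF were uninduced at day 0, or induced for 1, 2 or 7 days, with Flk1-positive cells also sorted at day 7. MEF with knockdown of Brg1, the ATPase of the SWI/SNF remodelling complex, were taken at day 0 and, with and without doxycycline, at days 1, 2 and 7. EB were uninduced, induced, or induced and sorted for Flk1, all labelled 12 h. Brg1-floxed EB of day 4 were all labelled as given doxycycline, and 1 of their 2 groups also as given 4OHT (4-hydroxytamoxifen), the usual inducer of CreER recombinases. The labels do not name a recombinase, the knockdown method, or separate cultures or animals behind the replicates.

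FGFs are secreted proteins that bind receptor tyrosine kinases together with heparan sulphate, and the receptors signal mainly through RAS and the MAP kinase ERK. Sprouty proteins and the phosphatase Dusp6 are switched on by this signal and dampen it. In the early embryo the pathway is needed for mesoderm formation and for cell movement at the primitive streak. A group of the genes, the FGF homologous factors Fgf11 to Fgf14, encodes proteins that stay inside the cell and bind sodium channels.

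The data are 19 lists of peak summits, each a position where the signal of a called peak is at its highest. Both samples of a group shared 1 list in 15 groups, so values from these have no replicate error and no test. The 4 floxed EB samples had a list each. List length ran from 11188 summits (uninduced knockdown MEF, day 7) to 85498 (uninduced EB), and a gene's count moves with it. Uninduced MEF held 62028 summits, and the induced lists held 50015, 26217 and 18418 at days 1, 2 and 7 and 29520 after the Flk1 sort. Counts summed over 6 fibroblast marker genes went from 51 in uninduced MEF to 29, 11, 3 and 14 in those lists, and over 6 endothelial markers from 32 to 28, 11, 9 and 15. At day 7 the fibroblast markers Col1a2, Thy1, Prrx1 and Pdgfra had 0 summits, as had the endothelial marker Kdr, which encodes Flk1. After the sort Kdr had 3, and Prrx1 and Pdgfra remained at 0. In uninduced MEF and on days 1 and 2 Kdr had 4, 5 and 1, so its count does not mark the sorted cells. The part of these differences in the FGF counts was not tested. Summits around Smarca4, which encodes Brg1, numbered 2 to 10 in 17 lists and 0 in the 2 knockdown lists of day 7, and they do not measure the knockdown.

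The start sites of the genes separated EB from MEF. Start sites were known for 22 of the genes, and one was counted as open when a summit lay within 1 kb. In uninduced EB 19 of 22 FGF genes were open at a start site (86.4%), against 67.4% of all 17274 genes with a start. In uninduced MEF it was 12 of 22 (54.5%), against 57.1%. At days 2 and 7 of induction 3 of 22 remained in the MEF lists (13.6%), when all genes stood at 45.1% and 35.5%, and the Flk1-positive cells had 7 of 22 (31.8% against 47.9%).

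Fgfr4, a receptor gene, and Fgf12 were open at their start in all 7 EB lists and in none of the 12 MEF lists. Fgf3, Fgf4 and Fgf22 were open in 5 EB lists and in no MEF list. Fgf7, a ligand made by mesenchymal cells, was the reverse, with 4 MEF lists and 0 EB lists. Fgf5, a ligand of the postimplantation epiblast, was open in all 7 EB lists and in the 2 MEF lists of day 0 and day 1 without knockdown. The feedback genes Spry2 and Dusp6 were open in 18 of 19 lists, all but the uninduced knockdown MEF of day 7. Fgf6 and Fgf21 were open in none. The 250 bases before the start site of 4 of these genes are printed from RefSeq on GRCm38.p6, each on the plus strand. Fgfr4 and Fgf5 show an ETS core match, and Fgf4 and Dusp6 the bases around a summit.

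Fgfr4, chr13:55152568-55152817, open only in EB, with the ETS core CCGGAA in capitals:
Fgfr4: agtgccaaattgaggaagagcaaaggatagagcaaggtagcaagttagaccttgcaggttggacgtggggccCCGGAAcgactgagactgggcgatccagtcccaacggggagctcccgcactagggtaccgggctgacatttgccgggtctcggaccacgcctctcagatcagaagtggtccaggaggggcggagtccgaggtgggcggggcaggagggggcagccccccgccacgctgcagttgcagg
Fgf5, chr5:98253934-98254183, with the reverse complement of the ETS core in capitals:
Fgf5: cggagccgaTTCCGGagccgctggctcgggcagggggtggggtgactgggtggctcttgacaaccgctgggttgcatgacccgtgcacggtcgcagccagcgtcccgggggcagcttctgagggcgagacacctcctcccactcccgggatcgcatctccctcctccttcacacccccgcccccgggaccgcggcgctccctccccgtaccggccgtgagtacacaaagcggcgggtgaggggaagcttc
Fgf4, chr7:144861136-144861385, with the 21 bases around the summit of uninduced EB (position 144861248) in capitals:
Fgf4: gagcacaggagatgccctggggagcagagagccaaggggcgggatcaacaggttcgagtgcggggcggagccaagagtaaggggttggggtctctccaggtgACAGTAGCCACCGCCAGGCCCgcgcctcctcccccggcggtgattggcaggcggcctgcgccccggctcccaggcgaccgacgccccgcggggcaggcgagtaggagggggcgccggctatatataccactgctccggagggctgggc
Dusp6, chr10:99262981-99263230, with the 21 bases around the summit of induced EB (position 99263152) in capitals:
Dusp6: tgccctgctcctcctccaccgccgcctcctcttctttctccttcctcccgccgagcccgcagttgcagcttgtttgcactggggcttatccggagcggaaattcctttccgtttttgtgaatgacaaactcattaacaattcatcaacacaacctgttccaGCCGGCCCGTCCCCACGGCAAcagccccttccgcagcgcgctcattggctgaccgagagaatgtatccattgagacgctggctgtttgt

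Within these 250 bases 17 lists have a summit at Dusp6, 5 at Fgfr4, 4 at Fgf5 and 4 at Fgf4. The ETS core CCGGAA, the DNA word read by Etv2 and its relatives, begins 178 bases before the Fgfr4 start and 241 before the Fgf5 start. Searched on both strands, it stood in 3 of 29 start-site windows of the FGF genes (10.3%, at Fgf12, Fgf5 and Fgfr4), against 15.1% of 21045 windows of all genes. The GATA word AGATAA was in 10.3% against 8.84%, and the AP-1 word TGANTCA in 6.90% against 6.17%. These are letter matches and not bound sites.

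**Figure D1:**
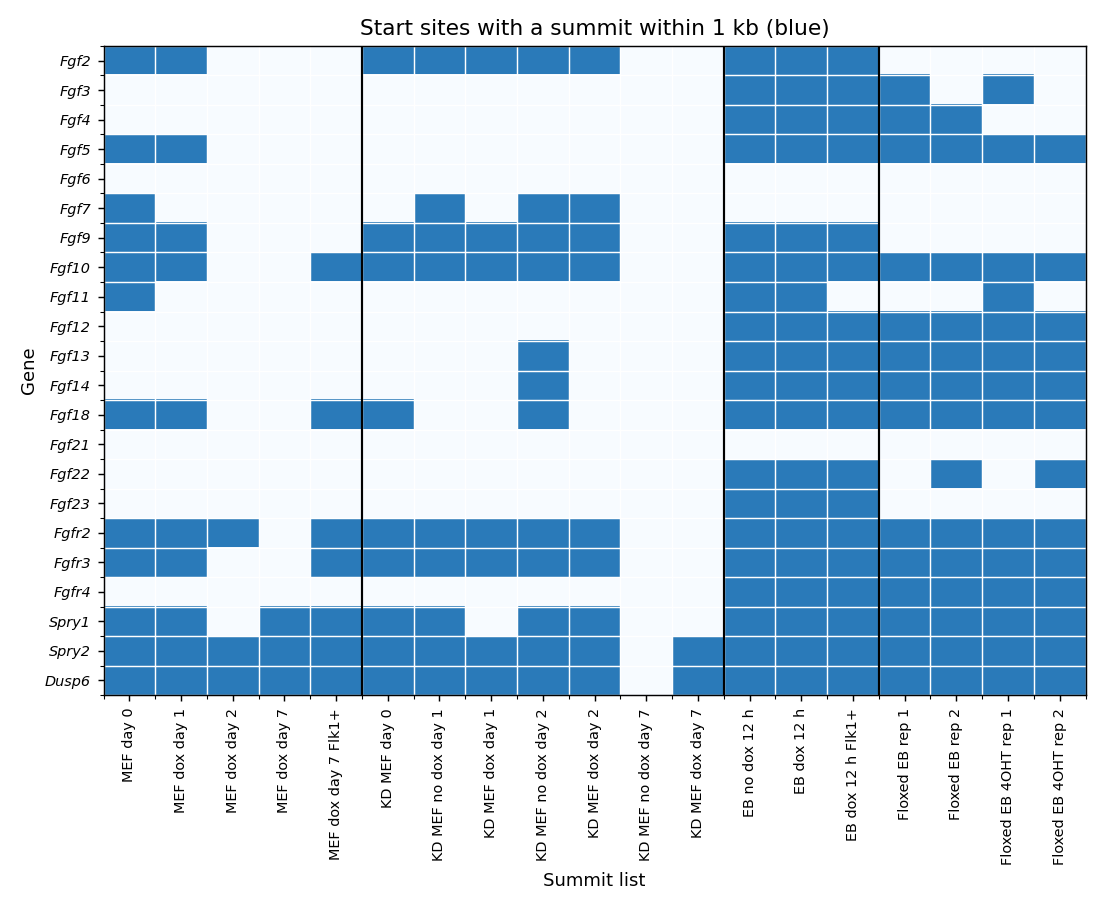
Rows are the 22 FGF genes with a known start site and columns the 19 summit lists, with blue where a summit lies within 1 kb of a start. Uninduced EB fill 19 of 22 rows and the MEF lists of days 2 and 7 without a sort fill 3 each, while Spry2 and Dusp6 are blue in 18 of 19 lists.

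Counts within 50 kb also differed between the cell types. A gene was called higher or lower between 2 lists when the counts, each plus 1, differed at least 2-fold and the larger was at least 3. Between uninduced EB and uninduced MEF 13 of 30 FGF genes were called higher in EB, where 22.4% of all tested genes were, and 2 were called lower, where 6.07% were. The FGF genes had a median difference of 4.5 summits and all genes 1. By role, 10 of 22 ligand genes, 1 of 4 receptor genes and 2 of 4 feedback genes were called higher, with median differences of 6, 3.5 and 4 summits.

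The largest differences in number were at Fgf14 and Fgf13, which belong to the intracellular FGF homologous factors. Fgf14 had 4 summits in uninduced MEF and 30 in uninduced EB, Fgf13 had 0 and 14, and Fgf12 had 3 and 14. Together with Fgf11 (8 and 9) the group held 15 MEF summits and 67 EB summits, or 2.42 (95% interval 1.35 to 3.99) and 7.84 (6.07 to 9.95) per 10000 summits of the list. The exact binomial intervals cover counting error only and treat summits as independent. Fgf12, Fgf13 and Fgf14 also have the longest windows, at 695.5, 623.4 and 803.2 kb. Per 100 kb of window, Fgf14 had 0.498 summits in uninduced MEF and 3.74 in uninduced EB, less than Fgf4 with 2.89 and 14.4.

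Among the secreted ligands, Fgf4, which early embryonic cells secrete, had 3 summits in uninduced MEF and 15 in uninduced EB. Its neighbour Fgf3 had 0 in all 12 MEF lists and 8 in uninduced EB. Fgf10, a ligand of limb and lung budding, had 6 and 17, Fgf9 1 and 9, Fgf1 3 and 10, Fgf17 6 and 13, and Fgf21, a liver hormone, 4 and 9. Fgf7 went the other way with 6 and 2. The windows of Fgf3, Fgf4 and Fgf15 overlap on chromosome 7, as do those of Fgf6 and Fgf23 on chromosome 6, so these genes share summits and are not separate cases. When each summit went to its nearest gene alone, 14 genes were called higher and 3 lower, and Fgf4 differed by 2 summits in place of 12.

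Receptor genes differed in direction. Fgfr2, the receptor that binds FGF7 and FGF10 in its epithelial form, had 15 summits in uninduced MEF and 7 in uninduced EB, and was called lower in EB. Fgfr3 had 2 and 7 and was called higher. Fgfr1, a receptor needed in early mesoderm, had 10 and 13, and Fgfr4 had 6 and 10. Of the feedback genes, Spry4 had 4 and 11 and Spry1 had 2 and 7, both called higher, while Spry2 (5 and 8) and Dusp6 (10 and 7) were not called. Cut to equal length, the 2 lists gave 8 genes higher and 2 lower, against 13.3% and 12.9% of all genes. Fgf14, Fgf13, Fgf12, Fgf4, Fgf3, Fgf9, Fgf1 and Spry1 remained higher, and Fgfr2 and Fgf7 lower, whereas Fgf10 showed a difference of 0.

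**Figure D2:**
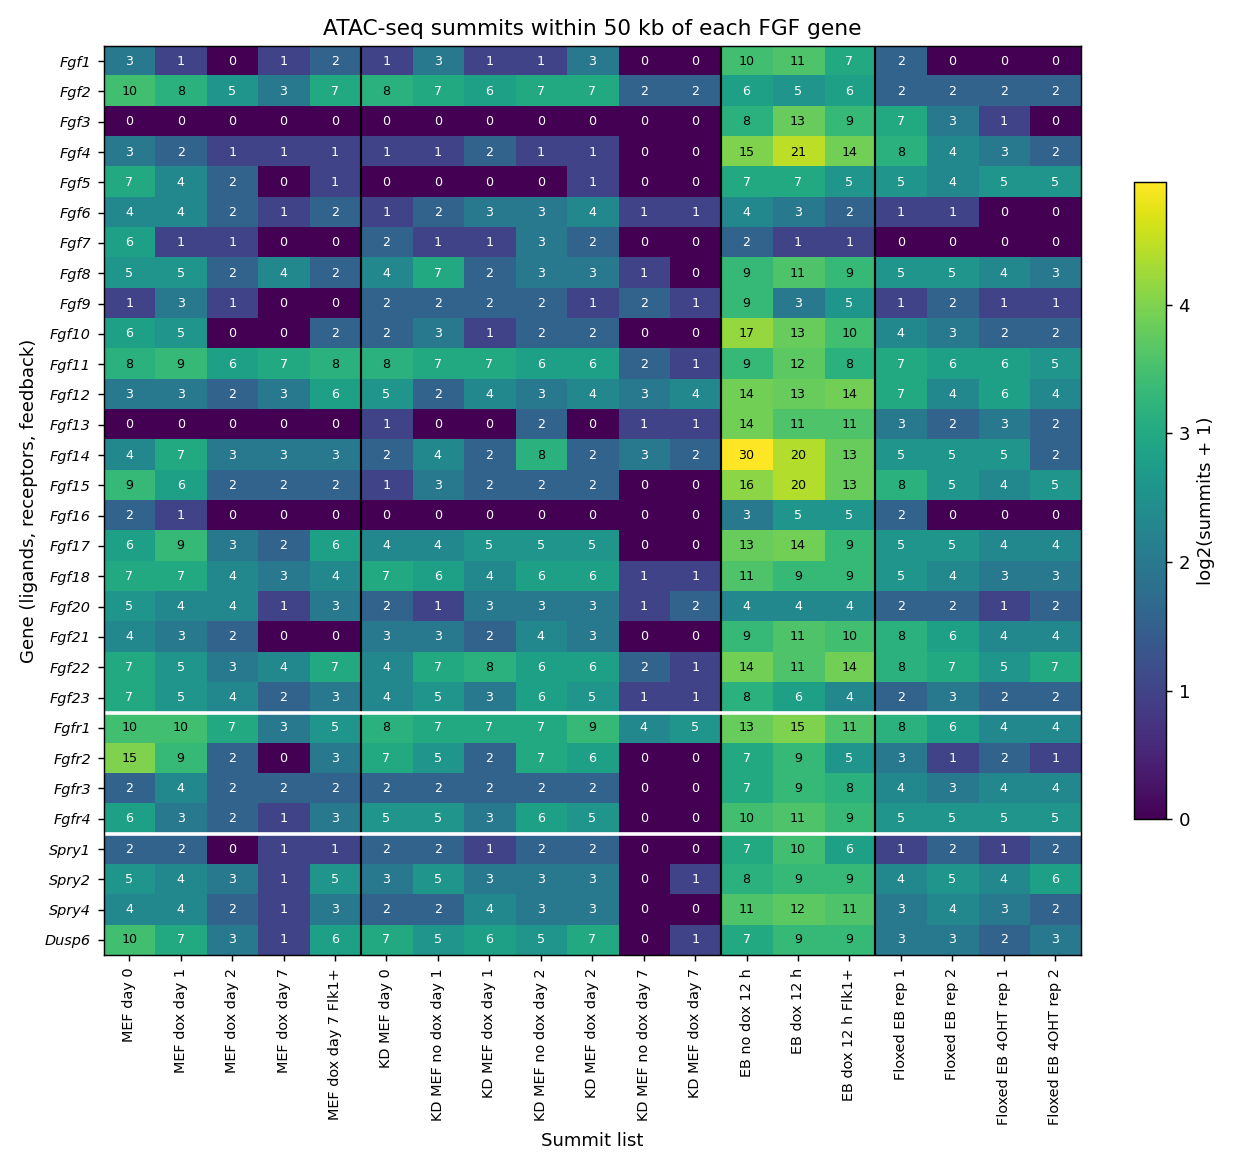
Each cell gives the number of summits within 50 kb of a gene (rows: 22 ligand, 4 receptor and 4 feedback genes, divided by white lines) in 1 list (columns), coloured by log2 of the count plus 1. The uninduced EB column reaches 30 at Fgf14, and Fgf3 is at 0 in every MEF column.

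The share of a list that fell within 50 kb of FGF genes differed little over MEF induction. It was 25.0 per 10000 summits in uninduced MEF (95% interval 21.2 to 29.2), 26.0, 25.2 and 24.4 at days 1, 2 and 7, and 28.8 in the Flk1-positive cells. All 5 of the 95% intervals overlap. Many of these summits lay nearest to another gene. An FGF gene was the nearest for 86 of 155 in uninduced MEF (55.5%). On days 1, 2 and 7 it was 54.6%, 40.9% and 26.7%, and 48.2% in the Flk1-positive cells. In uninduced, induced and Flk1-positive EB it was 66.2%, 65.6% and 62.8%. These percentages were not set against those of other genes. The share of a list near FGF genes was 32.9 per 10000 summits in uninduced EB (29.1 to 36.9). This share was 35.8 (31.7 to 40.2) in induced EB and 39.8 (34.9 to 45.3) in the Flk1-positive cells. The last 2 lie above the uninduced MEF value beyond counting error. Ligands stood at 16.3 (13.3 to 19.8) in uninduced MEF and at 24.7, 25.0 and 28.1 in uninduced, induced and Flk1-positive EB, with all 3 EB intervals above that of MEF. Feedback genes stood at 3.39 (2.10 to 5.17) in uninduced MEF and at 3.86, 5.13 and 6.03 (4.20 to 8.39) in these EB lists, and receptor genes at 5.32 and at 4.33, 5.64 and 5.69, with intervals that overlap those of MEF. Within the ligands, the FGF homologous factors had 2.42 per 10000 in uninduced MEF and 7.06 (3.76 to 12.1) in the unsorted MEF of day 7, from 15 and 13 summits, so their number hardly differed while the list became shorter.

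**Figure D3:**
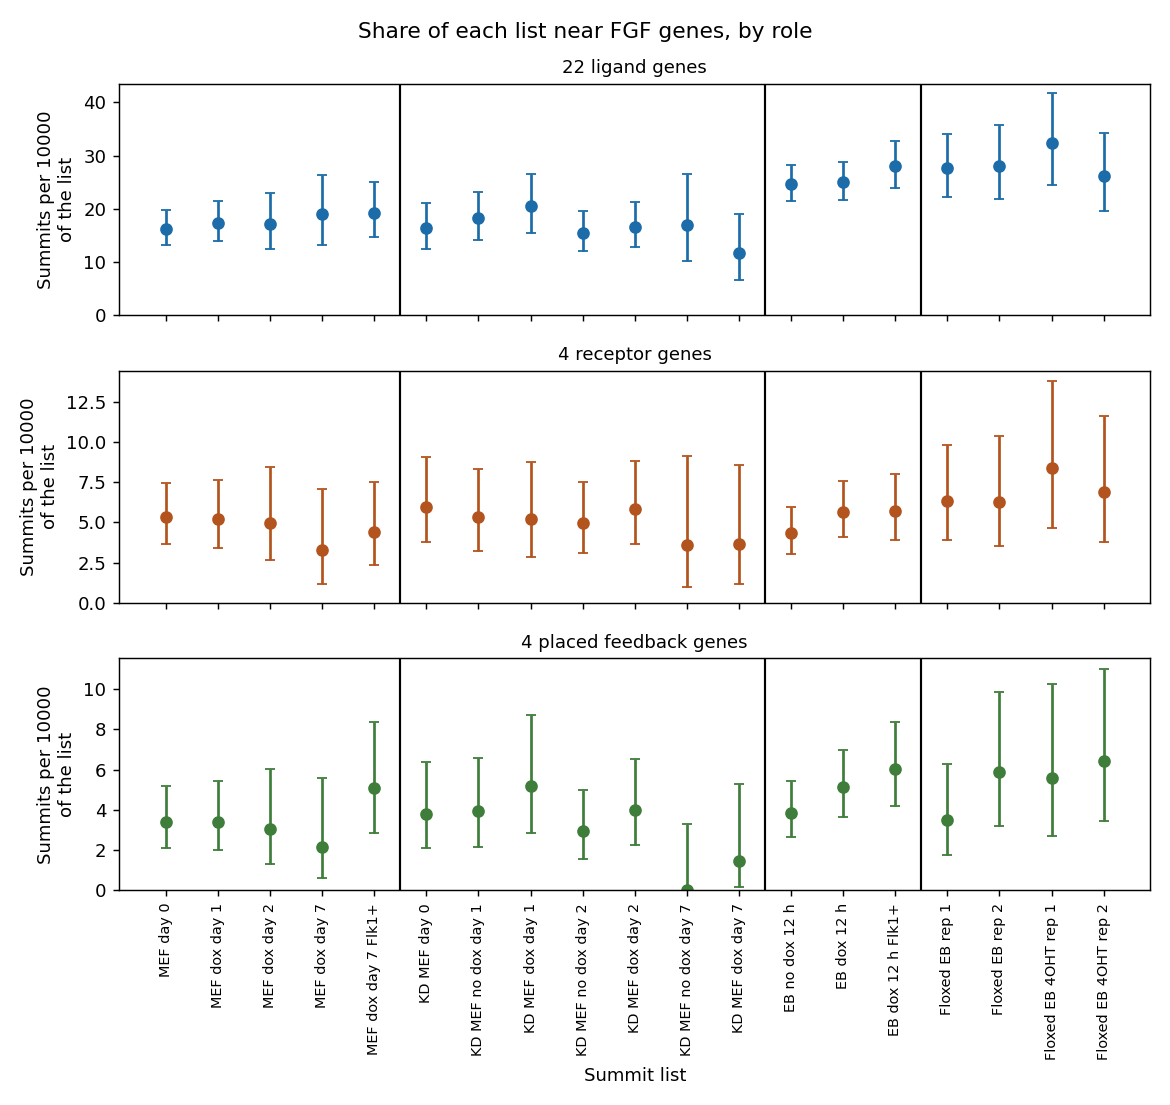
Points give the summits within 50 kb of the ligand, receptor and placed feedback genes per 10000 summits of each list. Bars give the exact 95% binomial interval for counting error. Ligands sit at 16.3 in uninduced MEF and 24.7 in uninduced EB, and feedback genes at 2.17 in unsorted and 5.08 in Flk1-positive MEF of day 7, with overlapping intervals.

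The comparisons of induced MEF share the uninduced list, so their results are not independent of each other. That list is of day 0, so doxycycline and days in culture cannot be told apart in MEF without knockdown. In the knockdown set, the lists without doxycycline held 36730, 35635, 44493 and 11188 summits at days 0, 1, 2 and 7. On day 1 of Etv2 induction most FGF genes were not called. Of 26 tested, 1 was called higher (0.862% of all tested genes) and 2 lower (7.53%). Fgf7 went from 6 summits to 1 and Fgf1 from 3 to 1, and Fgf9 from 1 to 3. Of the other 41 pathway genes (adaptors, RAS and MAP kinases, ETS targets, heparan sulphate enzymes), 39 were tested and 2 were called lower: Gab1, an adaptor, from 17 to 8, and the phosphatase Dusp9 from 4 to 0.

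By day 2 the counts were lower at most members, as over the genome. Of 24 tested, 0 were called higher (0.361%) and 11 lower (51.5%). Fgfr2 had 15, 9, 2 and 0 summits on days 0, 1, 2 and 7, the widest difference among the members. Fgf10 had 6, 5, 0 and 0, Fgf5 7, 4, 2 and 0, and Dusp6 10, 7, 3 and 1. Fgf11 stayed within 6 to 9 summits on these days. On day 7, 0 were called higher (0.502%) and 19 of 24 lower (73.3%), among them all 3 receptor genes and all 3 feedback genes tested. The members' share of calls was thus close to that of all genes on both days. Of the other pathway genes 17 of 37 were called lower on day 2 and 29 of 37 on day 7, with the heparan sulphate enzyme gene Ndst1 at 27, 8 and 2 on days 0, 2 and 7.

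These calls depended on list length. With the lists cut to equal length, 2 members were called higher (Fgf14 and Fgf20; 5.19% of all genes) and 0 lower (7.95%) on day 2. On day 7 Fgf14 and Fgf8 were called higher (9.27%) and Dusp6 lower (18.1%). At equal length Fgfr2 still had 2 fewer summits on day 2, while Fgf5 had 2 more.

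Flk1-positive MEF of day 7 were set against the uninduced MEF and against the unsorted cells of the same day. Against uninduced MEF 0 of 24 members were called higher (0.464%) and 9 lower (43.8%), 8 ligands and Fgfr2. At equal length the split turned to 4 higher (Fgf12, Fgf14, Fgf20 and Spry2; 6.24% of all genes) and 1 lower (Fgfr2; 9.21%). Fgfr2, with 15 summits at day 0 and 3 in the Flk1-positive cells, was thus called lower in both.

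Against unsorted day-7 cells 8 of 16 members were called higher (35.4%) and 0 lower (1.42%). All 3 feedback genes tested were among them: Dusp6 had 1 summit unsorted and 6 in Flk1-positive cells, Spry2 1 and 5, and Spry4 1 and 3. Fgf2, an angiogenic ligand, had 3 and 7, Fgf17 2 and 6, Fgfr2 0 and 3, Fgfr4 1 and 3, and Fgf20 1 and 3. The median difference was 3 summits for feedback genes, 2 for receptor genes, 1 for ligands and 1 for all genes. The unsorted list is the shorter, and at equal length Dusp6 and Spry2 remained called higher (13.6% of all genes) and Fgf8 was called lower (8.22%). Of the other pathway genes 14 of 32 were called higher, led by Ext1, which builds heparan sulphate chains, at 1 and 10.

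Spry2 and Dusp6 were open at the start in 18 of 19 lists, and Spry1 in 15. Farther out, the lists held different sites. Summits of all lists no more than 250 bp apart were merged to regions. A score's percentile within its own list was used to rank them, since scores grow with depth. A percentile also depends on the length of its list, so percentiles of different lists do not measure a change at a site. The region at the Spry2 start (617 bp upstream) was in 18 of 19 lists, at percentiles of 92.9, 91.0, 68.1 and 92.2 in MEF of days 0, 1, 2 and 7 and 96.5 in uninduced EB. In the knockdown lists that held it, it ranged from 6.6 (induced, day 7) to 85.8 (induced, day 2). A Spry2 region 5838 bp downstream of the start (chr14:105890810-105891153) was in 7 MEF lists and no EB list. Its percentile was 3.2 in uninduced MEF, 56.2 on day 1, 7.7 on day 2 and 43.0 in Flk1-positive cells. In the knockdown MEF it was 0.2 uninduced and 43.5 induced on day 1, and on day 2 it was in the induced list alone, at 49.9. The EB lists instead held a region 24082 bp upstream (chr14:105920782-105921020), at percentiles of 60.7 to 91.8 in all 7 EB lists and in no MEF list.

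Dusp6 showed a like arrangement. Its start region (179 bp upstream) ranked at percentiles of 78.7 to 98.0 in the 5 MEF lists without knockdown, and at 7.9 in the induced knockdown list of day 7. A region 5892 bp downstream of the start (chr10:99268705-99269542) was absent from uninduced MEF, from unsorted MEF of days 2 and 7, from all 4 uninduced knockdown lists and from the induced knockdown list of day 7. It was in the induced list of day 1 (53.4), in Flk1-positive MEF (38.1) and in the induced knockdown lists of day 1 (21.6) and day 2 (27.5). In EB it was in the uninduced list already (72.7), so it was not new there on induction. A region 34655 bp downstream was in the MEF lists of day 0 (91.9) and day 1 (82.5) alone. Another, 45739 bp downstream, was in these and in 3 knockdown lists of days 0 and 1, and in no EB list, whereas a region 23755 bp downstream was in 5 EB lists and no MEF list.

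**Figure D4:**
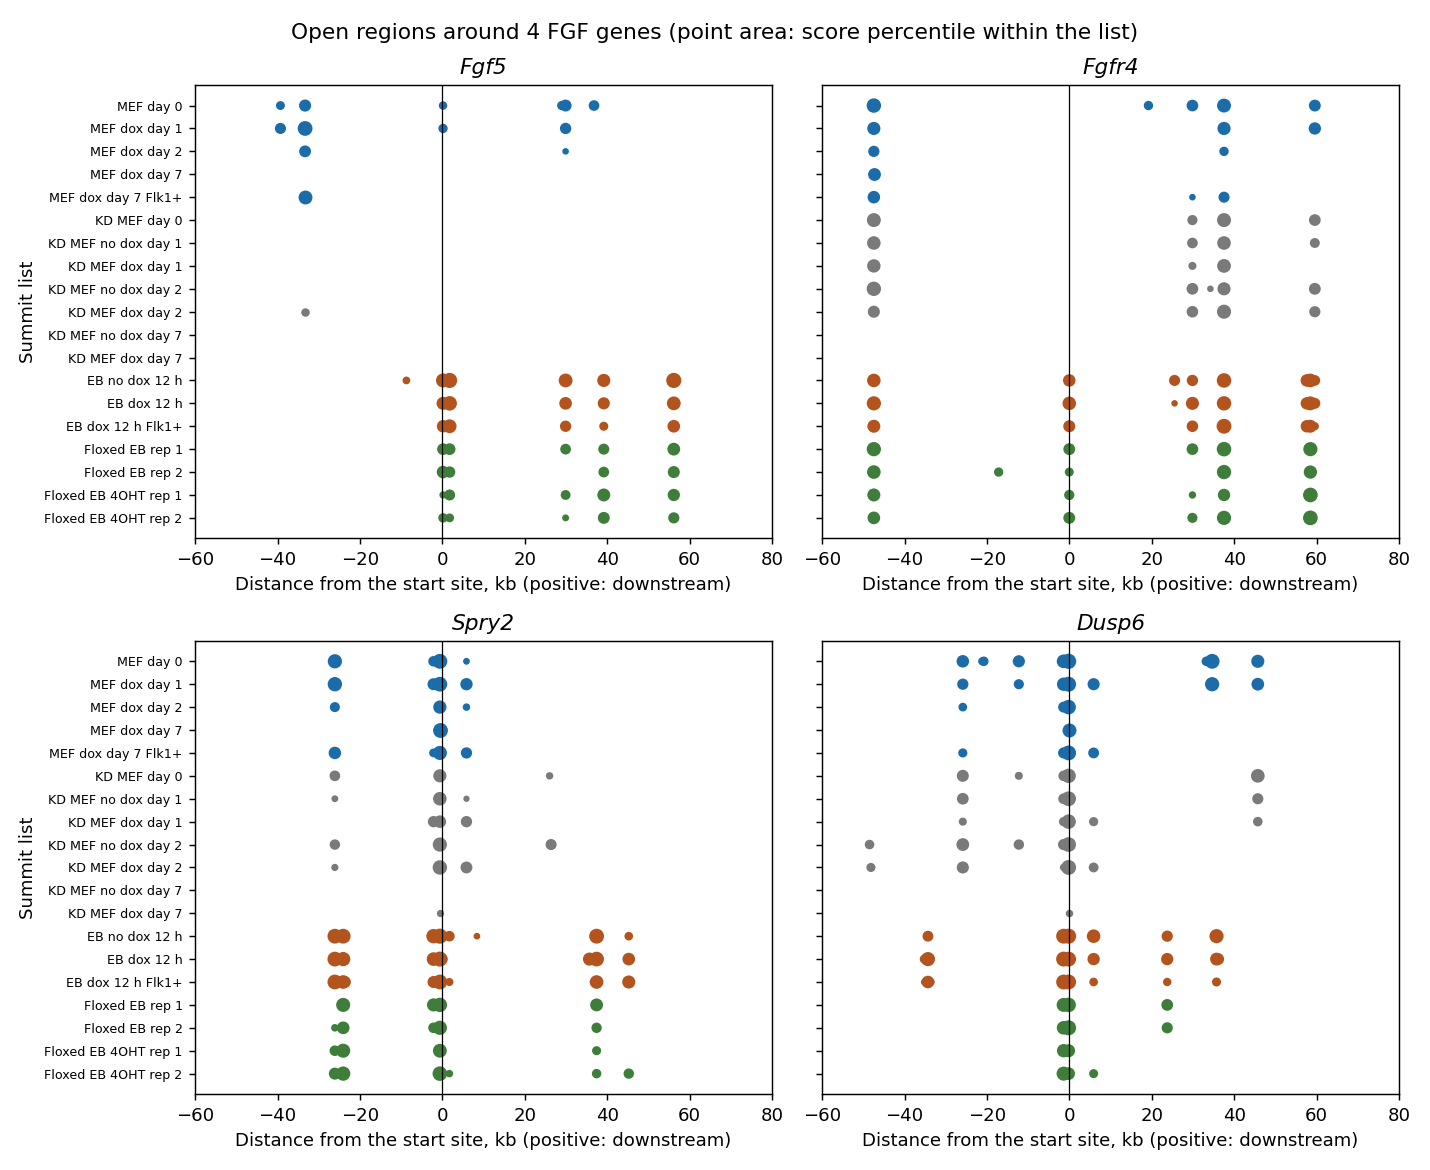
Each point is a joined region in 1 list (rows), placed by its distance in kb from the start site (x axis, downstream positive), with point area growing with its score percentile in that list. At Spry2 and Dusp6 the start is filled in 18 of 19 lists, and at Fgfr4 and Fgf5 the 7 EB lists hold start-site regions that Fgfr4 lacks in MEF.

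Near Fgf5 both uninduced lists held 7 summits, partly at the same places. They shared the start region (percentile 15.1 in MEF and 79.9 in EB) and a region 29902 bp downstream (51.2 and 76.2). A region 33329 bp upstream (chr5:98220740-98220971) was in uninduced MEF (percentile 53.2), induced day 1 (91.0), day 2, Flk1-positive MEF (77.8) and induced knockdown MEF of day 2 (15.4), and in no EB list. Regions 1752 bp inside the gene and 39168 and 56158 bp downstream were in all 7 EB lists and in no MEF list. The MEF sets also differed: uninduced MEF had 7 summits near Fgf5 and knockdown MEF of day 0 had 0. Sets with and without knockdown have no shared control list, so knockdown and the processing of each set cannot be told apart and these values only stand side by side.

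Induction in the knockdown MEF was compared within that set. On day 1, 1 of 21 members was called higher (1.07%) and 4 lower (13.2%). Fgf8 had 7 summits uninduced and 2 induced, Fgfr2 5 and 2, Fgf10 3 and 1, and Fgf1 3 and 1, with Fgf20 at 1 and 3. At equal length Fgf8 and Fgfr2 remained lower, and Spry2 and Spry4 joined Fgf20 as higher (3.27% of all genes called higher, 4.76% lower). On day 2, 1 of 20 was called higher (1.97%) and 1 lower (7.68%): Fgf1 had 1 and 3, and Fgf14 had 8 and 2. On day 7 only 3 members were tested, with 0 called higher (21.5%) and 0 lower (9.02%): Fgf12 with 3 and 4 summits, Fgf14 with 3 and 2 and Fgfr1 with 4 and 5. Of the other pathway genes the decoy-like receptor gene Fgfrl1 was called higher on day 2 (5 and 11) and lower on day 7 (5 and 1).

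In EB labelled 12 h the induced and uninduced lists differed little in number at the FGF genes. Of 29 tested, 0 were called higher (1.04%) and 1 lower (3.22%). That gene was Fgf9, a ligand needed for testis development, with 9 summits uninduced, 3 induced and 5 in Flk1-positive cells. All 4 receptor genes and all 4 placed feedback genes had more summits in the induced list, by a median of 2 and 1.5, whereas ligands had a median difference of -0.5 and all genes 0. Fgfr1 went from 13 to 15, Fgfr2 from 7 to 9, Fgfr3 from 7 to 9 and Fgfr4 from 10 to 11. Spry1 went from 7 to 10, Spry2 from 8 to 9, Spry4 from 11 to 12 and Dusp6 from 7 to 9. None of these 8 differences reached the call, and without replicates their error is unknown. The share of all genes with more summits in the induced list was not counted.

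The Flk1-positive EB list is shorter, and 18 of 30 FGF genes had fewer summits in it than in uninduced EB. The median difference was -1 for the FGF genes and -1 for all genes. Against uninduced EB 0 of 29 were called higher (0.346%) and 1 lower (12.5%). That was Fgf14, with 30 summits uninduced, 20 induced and 13 in Flk1-positive cells. Against unsorted induced EB 0 were called higher (0.187%) and 0 lower (7.26%). Spry2 and Dusp6 had 9 summits each in both of these lists, Spry4 had 12 and 11, and Spry1 had 10 and 6. None of the other pathway genes were called on induction, and 4 of 41 were called lower in Flk1-positive against uninduced EB, led by the heparan sulphate enzyme gene Hs2st1 at 24 and 8.

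Positions were compared as well as numbers. Of the 130 member summits of induced MEF on day 1, 22 had no uninduced summit within 250 bp (16.9%, 95% exact interval 10.9 to 24.5), against 21.04% of all summits of that list. In induced EB it was 66 of 279 (23.7%, 18.8 to 29.1), against 21.9%. Both intervals hold the value for all summits. On day 2 in MEF, 6 of 66 member summits had no partner (9.09%, 3.41 to 18.7), against 19.8% of all, which lies outside the interval. In the other 9 comparisons of pooled lists the interval held the value for all summits.

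Over all lists 429 joined regions of 156849 lay in member windows. Of these 135 (31.5%) were only in EB lists, in at least 2, where 23.2% of all regions were, and 44 (10.3%) were only in MEF lists, where 16.8% were. Regions in all 19 lists numbered 9 (2.10%, against 1.59%), 3 of them at Fgfr1 and none at feedback genes. The Fgfr1 region inside the gene (chr8:25518762-25519397) ranked between the percentiles of 24.3 and 85.8. The other 8 all lay nearer another gene, apart from 1 inside Fgf14.

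Regions opened in MEF, absent uninduced and present in an unsorted induced and the Flk1-positive list, numbered 6 of 429, where 1.46% of all regions were opened. They lay at Dusp6, Spry4, Fgf14, Fgfr2 and, with 2, at Fgf1. Regions closed in MEF, present uninduced and in no induced list, were 36 of 132, where 33.9% of all were. In EB 14 regions were opened (3.26%, against 2.59%), 3 of them at feedback genes and 2 at Fgfr3. Closed in EB were 53 of 253, where 27.8% of all were: 48 of 193 ligand regions, 2 of 30 receptor regions and 3 of 30 feedback regions.

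A single member region opened in both systems, where 0.784% of all regions did. It lies inside Fgf1 (chr18:38928891-38929026), where the genes Arhgap26 and Gm5820 overlap it. It was in induced MEF of day 1 (percentile 24.7), Flk1-positive MEF (66.4), induced knockdown MEF of day 1 (7.0) and day 2 (4.4), induced EB (67.3) and Flk1-positive EB (62.9). No uninduced list and no floxed list held it. Its 6 lists span MEF with and without knockdown and EB. Which of the 3 overlapping genes it bears on was not tested.

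Of 195 member regions in both the uninduced and the induced EB list, 85 had a higher percentile in the induced list (43.6%), 109 a lower one and 1 the same. The same count was not made over all regions, and the induced list is the shorter, with 77987 summits against 85498. At Fgf10, 2 regions were higher and 4 lower, while the summits numbered 17 uninduced, 13 induced and 10 in Flk1-positive EB. Of the 2 higher, a region 8815 bp upstream (chr13:118705761-118706008) stood at percentiles of 56.4 uninduced, 92.7 induced and 85.3 in Flk1-positive EB. The other, inside the gene (chr13:118758961-118759126), stood at 46.0, 87.1 and 86.7. Both were in no MEF list. Of the 4 lower, the start region stood at 93.0, 80.4 and 73.7, and a region 19338 bp upstream at 69.0 and 27.8 and was absent from Flk1-positive EB. At Fgf3 a region 26604 bp upstream (chr7:144811992-144812025), shared with the Fgf4 window, was absent uninduced and at 53.6 and 55.4 in the induced and Flk1-positive lists.

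In the Brg1-floxed EB each sample has its own list, so 4OHT could be tested over replicates. Near Fgf3 the lists without 4OHT held 7 and 3 summits and the 4OHT lists 1 and 0, so the groups did not overlap. On log2 of (summits plus 0.5) per 10000 summits of the list, its difference was -2.04 (SE 0.37, adjusted p = 9.93e-06, limma over 17626 genes), with 2 lists a group. It was the only one of 26 members tested to pass, where 6.38% of all genes did. The median of all genes on this scale was 0.28, and 0.22 for the members. The 4OHT lists are shorter, with 17946 and 20229 summits against 31436 and 23823. Without scaling the median of all genes was -0.24. The unscaled counts also did not overlap between the groups at Fgf4, Fgf8, Fgf10, Fgf17, Fgf18, Fgf21 and Fgfr1, all lower with 4OHT. Such a split is thus not particular to Fgf3, and its share over all genes was not counted.

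The Fgf3 call does not hold under every setting. Without the scaling by list length its adjusted p was 0.339 in limma, and without 4OHT replicate 2 it was 0.271. Within 10 kb Fgf3 had too few summits to be tested and the smallest adjusted p of any member was 0.176. limma drew the spread of a gene from a trend over all genes with their mean value. The SE of the members ran from 0.243 (Fgf22) to 0.405 (Fgf9). The p of Fgf3 thus rests on the spread of all genes and not on its 4 values. An exact permutation of 2 against 2 lists cannot go below 0.333 (two-sided).

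No other FGF gene passed the test. The neighbour Fgf4, whose window overlaps that of Fgf3, had 8 and 4 summits in the lists without 4OHT against 3 and 2 in the 4OHT lists, and a log2 difference of -0.54 (SE 0.27, adjusted p = 0.248, limma). Their shared region at the Fgf4 start (chr7:144861228-144861668) was in both lists without 4OHT, at percentiles of 46.8 and 10.4, and in neither with it. Fgf1 had 2 and 0 against 0 and 0, and Fgf16 the same, and neither was tested for low counts. Fgf5 had 5 and 4 against 5 and 5, Fgfr4 5 and 5 against 5 and 5, Spry2 4 and 5 against 4 and 6, and Dusp6 3 and 3 against 2 and 3. At an unadjusted p under 0.05, 4 members were higher (Fgf5, Fgfr3, Fgfr4 and Spry2) and 2 lower (Fgf3 and Fgf4), or 15.4% and 7.69%, near the 12.7% and 7.23% of all genes. Fgfr4 is among the higher at equal counts because the values are scaled by list length. Of the other 41 pathway genes 1 passed.

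**Figure D5:**
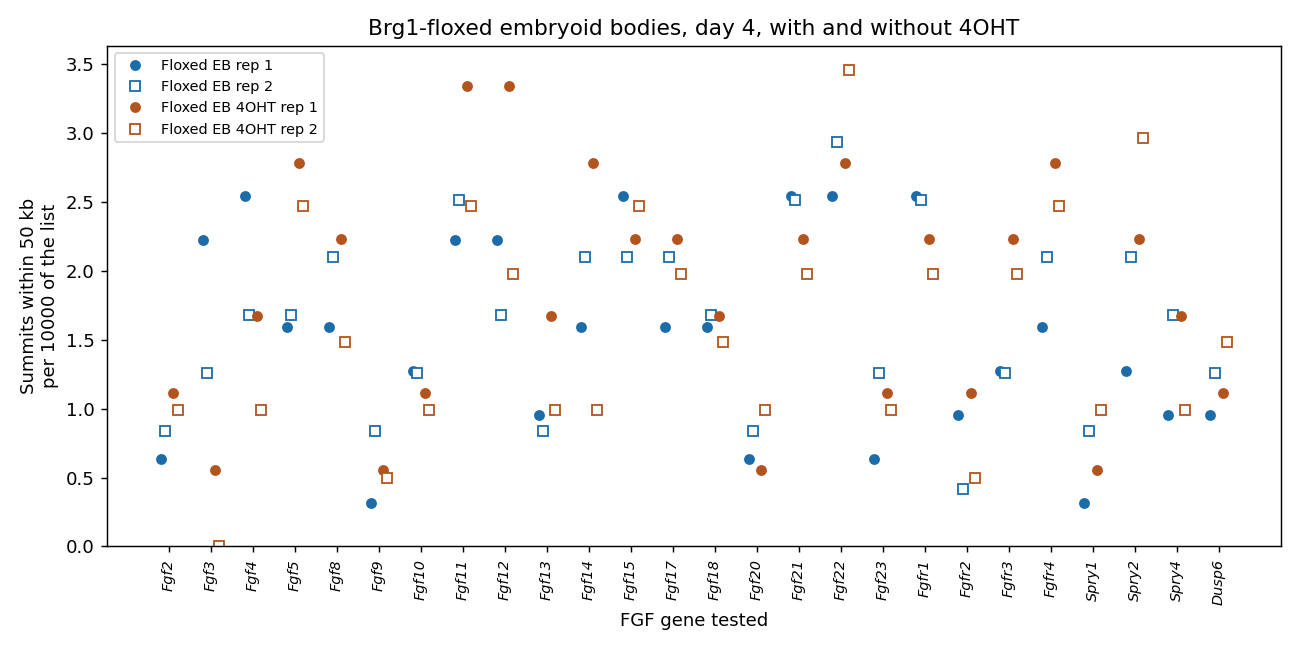
Each gene tested has 4 points, its summits within 50 kb per 10000 of the list, for the 2 lists without 4OHT (blue) and the 2 with it (orange), with circles for replicate 1 and squares for replicate 2. Fgf3 is the gene whose 4OHT points, from counts of 1 and 0, fall farthest below those without 4OHT.

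The start of Fgf4 was open in both floxed lists without 4OHT and in neither with it, and the starts of Fgfr4, Fgf5, Fgf10, Fgf12, Fgf13, Fgf14, Fgf18, Fgfr2, Fgfr3, Spry1, Spry2 and Dusp6 were open in all 4. In all, 14 and 14 of 22 starts were open without 4OHT and 14 and 13 with it (63.6%, 63.6%, 63.6% and 59.1%), against 61.5%, 58.5%, 54.2% and 56.3% of all genes. Pooled and floxed lists differ in form, since a pooled list gives up to 190 summits for 1 peak and a floxed list at most 1, so counts of day 4 and 12 h are not compared.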

How the data were processed

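ATAC-seq summits from 34 mouse samples in 17 groups of 2 were used. Reads were aligned with Bowtie2 2.2.4 to mm10, and MACS2 and HOMER were used, per the submitters' processing notes, which give no parameters. The deposited score of each summit is a −log10 q value by its range (lowest 1.30 to 1.33), made by the authors' peak calling. The labels of both samples name 1 shared list in 15 groups, and how they were pooled is not given in the sources used here. No read counts were used, so depth is known only as list length.

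Summits were counted within 50 kb of each protein-coding gene interval of the RefSeq table (GRCm38.p6). Groups with a shared list were compared by counts without a test, beside the percentage of all genes with at least 3 summits in either list that were called. The 4 floxed lists were tested with limma 3.58.1 (R 4.3.3; trend, log2 of count plus 0.5 per 10000 summits, genes with a mean of at least 1, Benjamini-Hochberg over all genes, threshold 0.05). Intervals are exact and cover counting error only. Nothing says that replicates came from separate cultures, so the p-values rest only on the spread between these samples, pooled over all genes. Counting ran in Python 3.11.15 with pandas 2.3.3 and numpy 2.4.6, intervals came from scipy 1.17.1, figures were drawn with matplotlib 3.10.9, and the calling steps were tested on simulated data.

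All 31 FGF genes could be named. Other pathway genes were counted as a list of 41 and named only where called, at most 4 per comparison by size of difference. The genes and lists were chosen with earlier results of these data known. Alternatives were equal list lengths, a 10 kb window, a score of at least 10, nearest gene only, partners within 100 or 500 bp, and for limma another added count, no scaling, no filter, the replicate block and each list left out. Start sites were known for 22 FGF genes. Fgf1, Fgf8, Fgf15, Fgf16, Fgf17, Fgf20, Fgfr1, Spry3 and Spry4 were not used there.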

Additional observations from a re-analysis of the deposited data

Results flagged for a closer look

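Some FGF genes were called in opposite directions between induced and uninduced lists in different cell sets or at different times. In MEF without knockdown the uninduced list is of day 0, so doxycycline and days in culture cannot be told apart. The differences in direction were not tested, since each list is pooled and has no replicate.

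Near Fgf1 the induced minus uninduced difference was -2 summits in MEF on day 1, -3 on day 2 and -2 on day 7, and in knockdown MEF it was -2 on day 1 and 2 on day 2. With lists of equal length the differences of MEF day 7 and of knockdown day 1 were both 1.

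Near Fgf9 the difference was 2 in MEF on day 1 and -6 in EB. Near Fgf20 it was -4 in MEF on day 7 and 2 in knockdown MEF on day 1.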

How the results depend on the processing

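Calls from pooled lists depended on list length and window. With equal list lengths the number of FGF genes called was 2 in place of 11 on MEF day 2, 3 in place of 19 on day 7, 5 in place of 9 for Flk1-positive against uninduced MEF, 3 in place of 8 for Flk1-positive against unsorted MEF, and 3 and 2 in place of 1 for induced and Flk1-positive against uninduced EB. Within 10 kb it was 6 and 9 on MEF days 2 and 7, 2 for Flk1-positive against unsorted MEF, 2 for Flk1-positive against uninduced EB, and 1 in place of 0 for Flk1-positive against induced EB. With a score of at least 10 it was 3 for Flk1-positive against unsorted MEF, 1 in place of 2 for knockdown day 2, 0 for induced EB, and 8 and 6 for Flk1-positive against uninduced and induced EB. With the nearest gene only it was 7 and 9 on MEF days 2 and 7, 3 for Flk1-positive against unsorted MEF, 2 in place of 5 for knockdown day 1 and 1 for knockdown day 2. EB against MEF gave 10 to 17 in place of 15. The cause of these differences was not tested. Each number joins genes called higher and genes called lower. It is not set beside the share of all genes called under that setting, so it says nothing particular to FGF genes.

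At equal lengths the sign turned for Fgf7 (1) and Fgf5 (2) on MEF day 2, Fgf1 (1) and Fgfr1 (1) on MEF day 7 and Fgf1 (1) on knockdown day 1. At a score of at least 10 it turned for Fgf9 (1) in EB. Summits without a partner were 36.9% and 10.8% in MEF on day 1 and 40.5% and 12.9% in EB for partners within 100 and 500 bp.

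In the floxed EB 0 FGF genes passed within 10 kb, and 0 to 1 when 1 list was left out, with 0 only without 4OHT replicate 2. Without scaling 1 passed, Fgf17 in place of Fgf3. Over all genes limma called 1125, against 706 with 1 added, 1869 unscaled, 556 within 10 kb and 83 to 755 with a list left out. Deviations from the group mean correlated at -0.0673 between same-numbered lists. With 2 lists a group, both numbers give the same value by construction. It therefore cannot tell whether same-numbered lists share a culture or batch. With the replicate block 1 FGF gene passed, Fgf3 (adjusted p = 0.000920 in limma), and 271 of all genes.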
